A study of Mus musculus with 3 samples.

Results

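Secreted and cell-surface proteases that degrade extracellular matrix, and the inhibitor Timp1, were examined in mouse spleen after intrasplenic islet transplantation. The members were Adamts1, Adamts4, Adamts5, Adamts9, Mmp2, Mmp3, Mmp13, Mmp14, Mmp19 and Timp1, which are 10 of the 34796 gene names on the array. All 13 of their non-control probes were used. The genes were picked with their signals in the 3 samples already known, with Adamts4 leading because its day 139 to day 0 ratio was the lowest of the group, so all their values are given here as a description. No p-value is given, because each condition was measured on 1 array.

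Young adult male C57BL/6J mice, made diabetic with streptozotocin, were given syngeneic islets, 25 into the spleen and 100 under the capsule of a kidney. Sample 1 was spleen taken directly after transplantation, called day 0, and Sample 2 was taken on day 2. Sample 3 was taken on day 139 after the graft-bearing kidney had been taken out on day 100. The capsular islets are named in the sample labels for Sample 3 alone and in the study's design text for all 3 samples, and how many mice each array stands for is not stated in the sources used here. No untreated spleen was analysed here, so day 0 was the earliest point and is not a baseline of unoperated tissue.

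Metalloproteinases need a zinc ion at the active site and are mostly secreted as inactive proenzymes. The matrix metalloproteinases (MMPs) cleave collagens, basement membrane proteins, other proteinases and cytokines. The ADAMTS proteases carry thrombospondin-type repeats that hold them to the matrix, and several of them cleave the large proteoglycans versican and aggrecan. The tissue inhibitors of metalloproteinases (TIMPs) block the active site of many of these enzymes. Transcription of many of these genes is known to respond to inflammatory cytokines, in part through AP-1, the Fos and Jun family of transcription factors.

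Adamts4 was read by 2 probes of 60 bases on the plus strand of chromosome 1 of the mm9 build. They lie at chr1:173190709-173190768 (probe 1, designed on ENSMUST00000111315) and chr1:173189952-173190011 (probe 2, designed on NM_172845). The first 30 bases of each, printed because the lowest ratios of the group rest on them, read as follows.
Adamts4 probe 1: aatgagaggaacaggatgtggtctggtatt
Adamts4 probe 2: cgcatctttgagcattagttttctcatgtg

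For Mmp13 and Mmp3, a collagenase and a stromelysin gene of the same stretch of chromosome 9, parts of the promoters are shown because they hold the AP-1 letters TGANTCA. Both come from RefSeq sequence on GRCm38.p6 and read along the plus strand, with the AP-1 match in capitals. The Mmp13 stretch is chr9:7272452-7272511, from -62 to -3 relative to the start site, and the Mmp3 stretch is chr9:7445749-7445808, from -73 to -14.
Mmp13: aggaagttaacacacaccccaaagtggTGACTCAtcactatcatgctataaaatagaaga
Mmp3: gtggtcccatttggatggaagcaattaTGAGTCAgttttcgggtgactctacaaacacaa

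The promoter table held 6 of the 10 genes, Adamts1, Adamts9, Mmp3, Mmp13, Mmp14 and Timp1. Windows of 250 bases before to 50 bases after the start site were searched on both strands. The AP-1 letters TGANTCA were found in 2 of the 6 windows and in 6.75% of the 32851 windows of the table. The PEA3 letters AGGAAG, bound by Ets-type factors, were found in 4 windows, those of Mmp3, Mmp13, Mmp14 and Timp1, against 29.5% of all windows. The letters TATAAA were found in 3, those of Adamts1, Mmp3 and Mmp13, against 12.4%, and the CRE letters TGACGTCA in none of the 6, against 1.55%. In the Mmp13 stretch printed above, AGGAAG stands at its 5' end and the TATAAA match follows the AP-1 match. None of these motifs overlapped another. A match describes the letters only.

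The signals are quantile-normalized scanner intensities in array units, comparable for 1 probe between samples and not between probes. A probe counted as detected if any of the 3 samples gave it a signal well above background, which held for 32108 of 55679 probes. A gene is said to rise or fall where it passed both criteria of the study's methods, a ratio of at least 1.5 with a Z-score of at least 2, or a ratio of at most 0.66 with a Z-score of at most -2. The methods do not define the Z-score. Here it sets the log2 ratio against the SD over 1000 detected probes of the nearest mean signal. It thus ranks a probe among others of its brightness and holds no information on mice. The methods name comparisons of Sample 3 with Sample 1 and with Sample 2, and that of Sample 2 with Sample 1 was added here. The error given with a log2 ratio comes from the scanner software's error model. Where a probe was not well above background in the dimmer sample, the ratio is a bound, taken against the higher of its own signal and the lowest signal well above background there.

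On day 0 all 13 probes were well above background, on day 2 this held for 12 and on day 139 for 9. The highest signal lay in Sample 1 for 10 probes and in Sample 2 for 3 (Mmp2, Mmp3 and Mmp14), and the lowest lay in Sample 3 for all probes but that of Mmp2. The order Sample 1 over Sample 2 over Sample 3 was seen in 10 of 13 probes and in 18.6% of all detected probes. That share is printed for scale only, since the genes were picked with these signals known. Among the 10, 3 genes count with 2 probes each. Adamts9 probe 2 was not well above background on day 2 or day 139, so its last step is not resolved. The median log2 ratio of the 13 probes was -0.92 for Sample 2 over Sample 1, -2.17 for Sample 3 over Sample 1 and -1.31 for Sample 3 over Sample 2. With bounded ratios placed at their bounds these medians were -0.92, -2.17 and -1.31. Over all detected probes the medians were 0.01, -0.02 and -0.04.

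**Figure D1:**
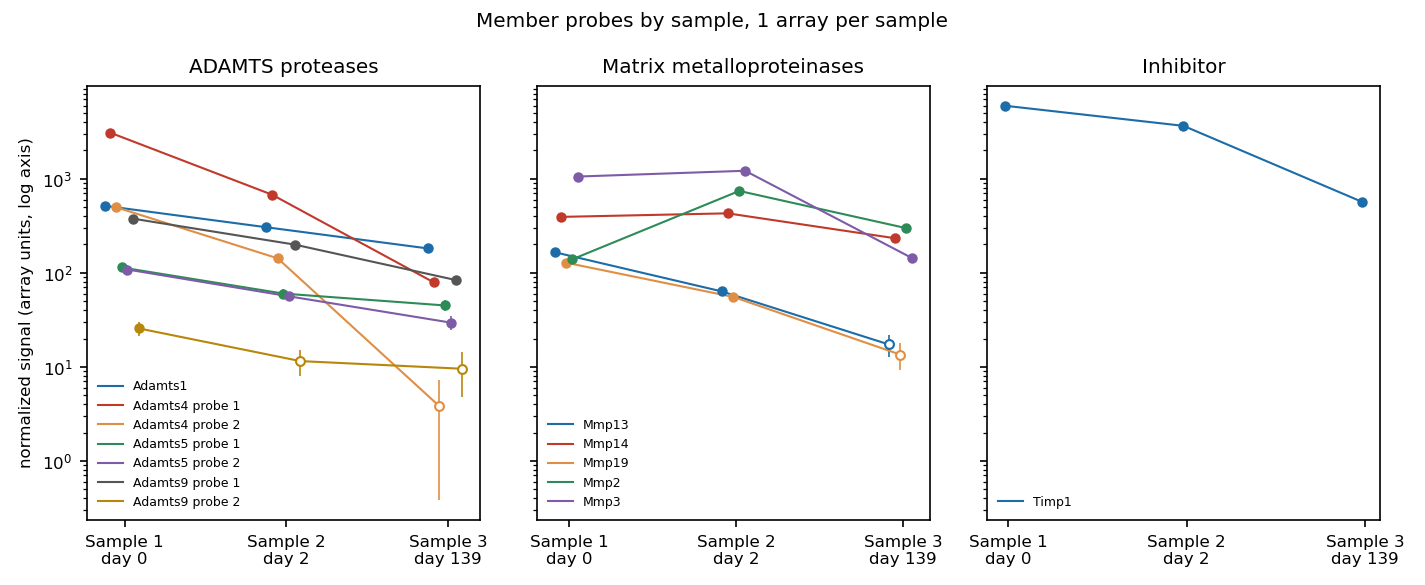
Normalized signal of each of the 13 member probes (log axis, array units) in Sample 1, Sample 2 and Sample 3, with 1 array per sample, in panels for ADAMTS proteases, MMPs and Timp1. Bars are the scanner software's error, open circles are signals not well above background, and the lines of Mmp2, Mmp3 and Mmp14 peak in Sample 2 while the other 10 step down from Sample 1 to Sample 3.

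Between day 0 and day 2, Adamts4 (both probes) and Mmp13 fell and Mmp2 rose, while the other 7 genes did not pass both criteria. The 3 probes that fell stand beside 2.55% of all detected probes that fell in this comparison, and the 1 that rose beside 1.91%. By day 139, 9 probes of 8 genes had fallen from day 0, beside 2.21% of detected probes. No member probe had risen, beside 2.52%. From day 2 to day 139, 6 probes of 5 genes fell, beside 1.77%, and none rose, beside 2.39%. By the ratio limit alone, 10 member probes were lower and 1 higher on day 2 than on day 0, beside 10.4% and 10.1% of detected probes. On day 139, 12 were lower and 1 higher than on day 0, beside 14.7% and 12.8%, and 11 were lower and 0 higher than on day 2, beside 14.4% and 12.4%. These shares are printed for scale only, since the genes were picked on the same ratios.

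Adamts4, an aggrecanase that cleaves aggrecan and versican, had the lowest day 139 to day 0 ratio of the members, which is how it was chosen. Probe 1 read 3083 on day 0, 677 on day 2 and 79.1 on day 139, and signals below are given in that order. Probe 2 read 498, 142 and 3.81, and its last value was not well above background. Both probes stepped down at each time.

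On day 2, probe 1 had fallen by 2.19 ± 0.20 on the log2 scale from day 0 (scanner error, Z-score -4.59). Probe 2 had fallen by 1.81 ± 0.21 (Z-score -3.03), a gap between the probes of 0.38 against a combined error of 0.29. By day 139, probe 1 was 39.0-fold lower than on day 0, a log2 ratio of -5.28 ± 0.22. Probe 2 was at least 27.3-fold lower. In the deposited value table the day 139 to day 0 ratio of probe 1 was 0.0257, and that of the next member, Timp1, was 0.0950.

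From day 2 to day 139 the Adamts4 signal fell again, 8.55-fold with probe 1 and at least 7.83-fold with probe 2. Of the log2 fall of probe 1 over the 139 days, 41.4% was in place by day 2. For probe 2 this was 25.7%, with a day 139 signal not well above background. With a model-based background correction that adds an offset of 50 to every signal (normexp), the fall of probe 1 from day 0 to day 139 was 23.7-fold in place of 39.0-fold. Probe 2 was 8.55-fold lower over the same time with that correction, and 3.09-fold lower from day 2 to day 139, below its bounds without the offset.

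Adamts1, a versican-cleaving protease (chr16:85795044-85795103, minus strand of mm9, NM_009621), read 515, 305 and 181. Its log2 ratio was -0.76 on day 2, which did not pass both criteria, and it fell by 1.51 ± 0.21 by day 139 (Z-score -2.21). That fall did not pass when 1 SD was used for all probes (Z-score -1.80) or when the arrays were scaled by spike-in RNA (Z-score -1.69).

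Adamts5, the other main aggrecanase of cartilage, had 2 probes designed on NM_011782 at chr16:85858402-85858461 and chr16:85899450-85899509, on the minus strand. Probe 1 read 114, 60.1 and 44.9, and probe 2 read 108, 56.2 and 29.5. On day 2 the probes gave log2 ratios of -0.92 and -0.95, and neither passed both criteria. By day 139 they gave -1.34 ± 0.25 and -1.88 ± 0.28. Only probe 2 passed both criteria (Z-score -2.46, against -1.75 for probe 1), and it did not pass under spike-in scaling or normexp (Z-score -1.96 in each). Adamts5 was lower by 2.53-fold with probe 1 and 3.67-fold with probe 2, and by 1.64-fold and 1.84-fold with normexp.

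Adamts9, another versican-cleaving protease, was read by probe 1 at chr6:92723051-92723110 (NM_175314) and probe 2 at chr6:92743256-92743315 (ENSMUST00000125490), both on the minus strand. Probe 1 read 376, 199 and 83.5, with a log2 ratio of -0.92 on day 2, and was 4.51-fold lower on day 139 than on day 0 (Z-score -3.23). Probe 2 read 25.6, 11.5 and 9.55 and was well above background on day 0 alone, with bounds of at least 1.83-fold lower on day 2 and at least 1.41-fold lower on day 139. The dim probe 2 passed the criteria in no comparison, and its sign from day 2 to day 139 turned under spike-in scaling (0.15 in place of -0.27).

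The collagenase Mmp13 (chr9:7282762-7282821, plus strand, NM_008607) read 165, 63.4 and 17.3, and the last value was not well above background. It fell by 1.38 ± 0.22 on the log2 scale by day 2 (Z-score -2.42). It was at least 9.08-fold lower on day 139 than on day 0 and at least 3.48-fold lower than on day 2.

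Mmp19, which cleaves basement membrane proteins (chr10:128236221-128236280, plus strand, NM_021412), read 128, 55.3 and 13.5, the last value again not well above background. Its day 2 log2 ratio of -1.21 did not pass (Z-score -1.75). It was at least 7.02-fold lower on day 139 than on day 0 and at least 3.04-fold lower than on day 2. Mmp13 and Mmp19 kept their falls from day 0 to day 139 under normexp, at log2 ratios of -1.47 and -1.29, and neither passed from day 2 to day 139 under that setting (-0.62 and -0.57).

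Stromelysin-1, encoded by Mmp3 (chr9:7455751-7455810, plus strand, NM_010809), cleaves proteoglycans and laminin and activates other MMP proenzymes. It read 1055 on day 0, 1215 on day 2 and 143 on day 139. The day 2 log2 ratio was 0.20 ± 0.20, a difference no larger than the scanner error. From day 2 to day 139 the signal fell 8.48-fold (Z-score -5.18), and from day 0 to day 139 it fell 7.36-fold (Z-score -4.87). So Mmp3 was at about the same signal on days 0 and 2 and low on day 139.

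Timp1 (chrX:20451802-20451861, plus strand, NM_001044384), which inhibits most secreted MMPs and is induced in inflamed tissue, read 5972, 3649 and 567. Its day 2 log2 ratio was -0.71 (Z-score -1.83) and did not pass both criteria. It fell 10.5-fold from day 0 to day 139 (log2 ratio -3.40 ± 0.20, Z-score -5.81) and 6.43-fold from day 2 to day 139. Of its log2 fall over 139 days, 20.9% was in place by day 2, against 41.4% for Adamts4 probe 1, 50.3% for Adamts1 and 42.2% for Adamts9 probe 1. It was 68.7% and 50.5% for the Adamts5 probes, while Mmp3 and Mmp14 were not lower on day 2 (-7.07% and -16.8%). For probes not well above background on day 139 it was 25.7% (Adamts4 probe 2), 37.2% (Mmp19), 42.5% (Mmp13) and 81.0% (Adamts9 probe 2).

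Mmp2, the gelatinase A of mesenchymal cells (chr8:95376840-95376899, plus strand, NM_008610), ran the other way. It read 139 on day 0, 742 on day 2 and 298 on day 139, and was the single member with its lowest signal on day 0. It rose 5.33-fold by day 2 (log2 ratio 2.41 ± 0.21, Z-score 4.49), a ratio above that of 99.5% of detected probes. On day 139 it was 2.14-fold higher than on day 0 (Z-score 1.67) and 2.49-fold lower than on day 2 (Z-score -1.97), and neither ratio passed both criteria. Under spike-in scaling the day 139 to day 0 ratio of Mmp2 passed (Z-score 2.23).

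Mmp14, a membrane-anchored MMP that activates the Mmp2 proenzyme at the cell surface (chr14:55058775-55058834, plus strand, NM_008608), read 393, 429 and 233. Its log2 ratios were 0.13 ± 0.20 on day 2, -0.75 on day 139 against day 0 and -0.88 on day 139 against day 2. None passed both criteria.

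**Figure D2:**
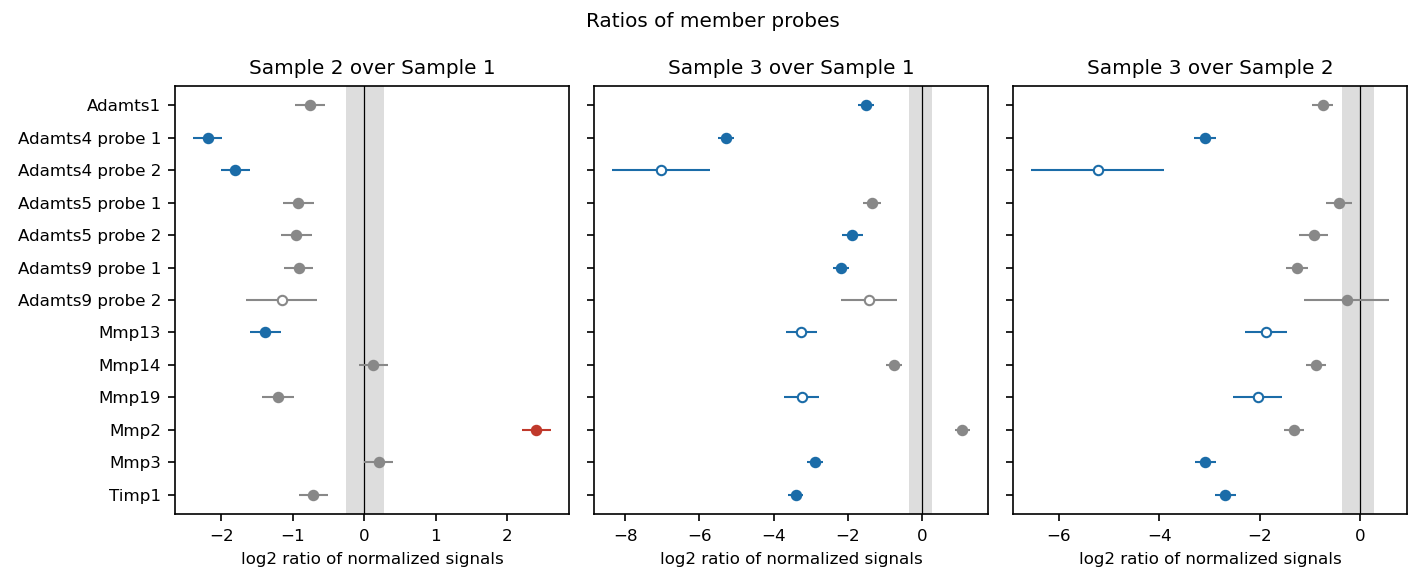
Log2 ratios of the 13 member probes in the 3 comparisons between samples, with the scanner software's error as bars and the 25th to 75th percentile of all detected probes as a grey band. Blue marks probes that fell, red a probe that rose, grey probes that did not pass both criteria, and open circles ratios that are bounds, drawn at the measured value. Mmp2 at 2.41 is the sole red point, and Adamts4 lies farthest to the left in each panel.

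Arranged by the comparisons in which they passed both criteria, the members showed 3 courses. Adamts4 and Mmp13 fell on day 2 and again by day 139. Mmp3 and Timp1 passed both criteria only in the comparisons with day 139, as did Mmp19, Adamts1, Adamts9 probe 1 and Adamts5 probe 2. Mmp2 was highest on day 2. Mmp14 passed in no comparison and belongs to no course. The second course rests on the Z-score limit. Its day 2 log2 ratios ran from -1.21 for Mmp19 to -0.71 for Timp1, with Mmp3 apart at 0.20. Of its members, Mmp3, Timp1 and Mmp19 also passed from day 2 to day 139. These courses rest on single arrays, and no difference between members was tested.

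**Figure D3:**
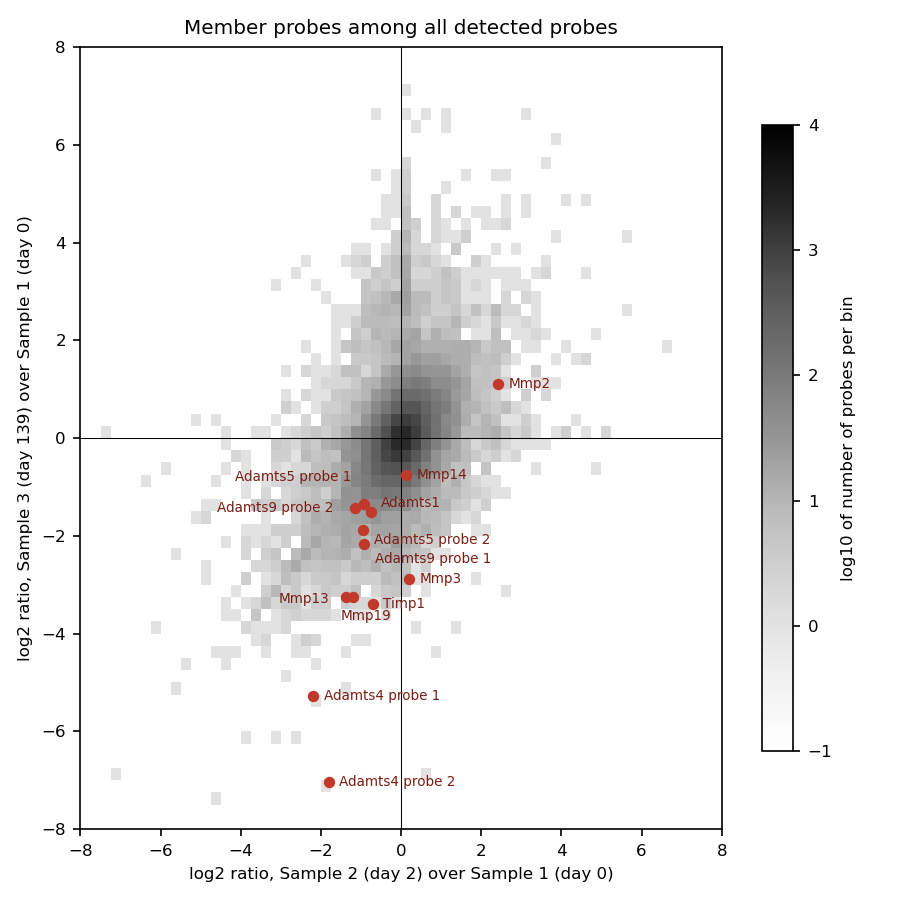
Day 139 over day 0 (vertical, log2 ratio) against day 2 over day 0 (horizontal, log2 ratio), with all detected probes counted in bins of 0.25 on a grey scale and the 13 member probes as red points. Both axes share Sample 1, and 1 detected probe lies outside the axes. Adamts4 lies at the lower edge of the cloud, at -5.28 for probe 1, Mmp3 and Timp1 lie low near the vertical line, and Mmp2 lies in the upper right.

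The genes whose pair of log2 ratios lay nearest to that of Adamts4 probe 1, among 19826 genes well above background in all 3 samples, were Mt2, a metallothionein, at a distance of 1.61, the monocyte chemokine gene Ccl7 at 1.62, the neutrophil gene Retnlg at 1.68, the decoy interleukin-1 receptor gene Il1r2 at 1.73 and the plasminogen activator inhibitor gene Serpinb2 at 1.77. Mt2 read 74250, 17500 and 5821. For Timp1 the nearest was the neutrophil chemokine gene Cxcl5, at a distance of 0.0583, with signals of 785, 461 and 73.9. The next were Fmr1nb at 0.243, 5730419F03Rik at 0.244, a long noncoding RNA region probe at 0.346 and the eosinophil chemokine gene Ccl24 at 0.369. Likeness over 3 arrays is a description.

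The lists of related genes below were chosen with earlier results of these data known, so their counts are a description. The shares of all detected probes given above are their scale. Of the 18 other MMPs looked up, 11 were detected. By day 2, 3 of the 11 had risen and 2 had fallen (median log2 ratio 0.84). The collagenase Mmp8 of neutrophil granules read 3033, 140 and 135 and fell by 4.44 on the log2 scale by day 2, and the gelatinase Mmp9, also stored in neutrophils, read 222, 101 and 73.8 and fell. Mmp23 rose from 444 to 1083, Mmp17 from 165 to 343 and Mmp15 from 6.12, not well above background, to 28.4. The Mmp15 ratio is a bound of at least 2.20-fold. The Mmp17 rise did not pass under spike-in scaling or scaling to the 75th percentile, and the Mmp15 rise did not pass with normexp (log2 ratio 0.44), which took the day 2 median of the list to 0.20. By day 139, 2 of the 11 were lower than on day 0 (Mmp8 and Mmp9) and none higher, with a median of -0.54. Under spike-in scaling Mmp9 no longer passed and Mmp23 passed as higher.

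Of the 15 other ADAMTS genes, 10 were detected, and their median log2 ratios were 0.46 on day 2 and 0.07 on day 139 against day 0, against -0.95 and -1.88 for the 7 member probes of the family. The median of 0.07 turned to -0.07 under scaling to the 75th percentile and to -0.02 with normexp. Adamts15, a relative of Adamts1 that also cleaves proteoglycans, read 161, 80.2 and 30.8 and fell by 2.38 on the log2 scale by day 139. The procollagen N-proteinase gene Adamts2 rose from 1017 to 2442 by day 2 and read 801 on day 139. The other 8 genes passed the criteria in no comparison. The members had been picked with these ratios known, and this list holds the ADAMTS genes left after that choice. The gap between the medians therefore cannot be read apart from the picking. Of the 10 detected genes, 6 were well above background in all 3 samples.

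Of 6 other inhibitors, Timp2, Timp3 and Reck were detected. Timp2 read 14970, 18500 and 19010, and its log2 ratios of 0.31 and 0.34 did not pass. Timp3, which also inhibits ADAMTS proteases, read 3049, 1757 and 2432 and fell by 0.80 on the log2 scale by day 2 (Z-score -2.05), which did not pass under scaling to the 75th percentile. No inhibitor of the list passed in a comparison with day 139. The median of the list against day 0 was -0.17 on day 139 and turned to 0.20 under spike-in scaling.

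In the plasminogen system, whose proteases activate several pro-MMPs, 6 of 7 genes looked up were detected. By day 139, 2 of the 6 had fallen and none had risen (median log2 ratio -1.06). Serpinb2, an inhibitor of plasminogen activators, read 573, 314 and 33.2 and fell by 4.11 on the log2 scale. The urokinase receptor gene Plaur read 3101, 1875 and 1165, and its fall did not pass under spike-in scaling. The protease gene Plau, not well above background on day 139, was at least 2.02-fold lower than on day 0. Plat, also a protease gene, had a log2 ratio of -1.10, and neither passed both criteria. All 6 detected genes had log2 ratios below 0 on day 139 against day 0. Those that passed the criteria encode an inhibitor and a receptor.

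Of 21 substrates and matrix partners, 17 were detected. By day 2, 5 had risen and 2 had fallen (median 0.40), and by day 139, 2 had risen and 5 had fallen against day 0 (median -0.55, and -0.06 under spike-in scaling). Versican (Vcan), the substrate shared by Adamts1, Adamts4, Adamts5 and Adamts9, read 370, 139 and 16.9, and was at least 20.3-fold lower on day 139 than on day 0. Tnfaip6, whose product binds hyaluronan at sites of inflammation, read 92.4, 90.2 and 11.3, a course like that of Mmp3, and was at least 5.08-fold lower on day 139. Thrombospondin-1 (Thbs1) read 3164, 1589 and 726. Osteopontin (Spp1) rose from 114 to 648 by day 2 and was at least 35.6-fold lower on day 139 than on day 2. The small proteoglycan genes Dcn (1585, 2067 and 9670) and Lum (17.3, 37.5 and 180) rose by 2.61 and 3.38 on the log2 scale by day 139.

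**Figure D4:**
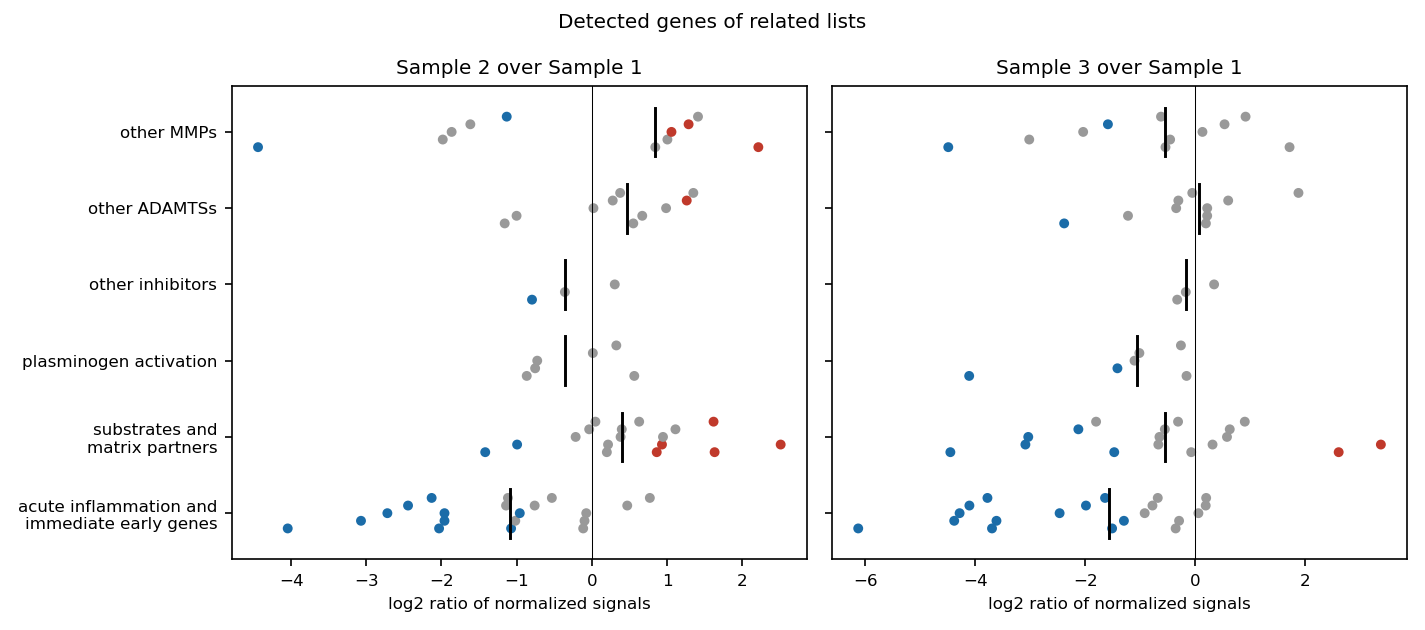
Log2 ratio of each detected gene of 6 lists related to the members, for Sample 2 over Sample 1 and Sample 3 over Sample 1, with the median of each list as a black bar. Blue points fell, red points rose and grey points did not pass both criteria. The acute inflammation list lies lowest, with medians of -1.09 and -1.57, and the other ADAMTS genes lie around 0 on day 139. Some grey and blue points, and the red point of Mmp15 for Sample 2 over Sample 1, rest on signals near background and are drawn at their measured ratio.

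All 20 genes of the list for acute inflammation and immediate early response were detected. By day 2, 10 had fallen and none had risen, beside 2.55% and 1.91% of all detected probes. By day 139, 12 had fallen against day 0 and none had risen, beside 2.21% and 2.52%. The list was chosen with earlier results of these data known, so these counts are a description. Under scaling to the 75th percentile Saa3 passed as higher on day 2 (log2 ratio 0.88 in place of 0.77) and 11 genes had fallen by then. The cytokine gene Il6 read 841, 50.9 and 40.4, a drop by day 2 with little after it (log2 ratio -0.33 from day 2 to day 139). The chemokine genes Ccl2 (1957, 1007 and 151) and Ccl7 (867, 412 and 50.4) and the acute phase gene Saa3 (7835, 13380 and 403) were lowest on day 139. Cxcl2 read 257, 39.0 and 3.68 and was at least 14.1-fold lower on day 139 than on day 0. Il1b read 3926, 721 and 1378 and had fallen at both times. Of the AP-1 genes in the list, Fos read 346, 204 and 183, Fosb 68.4, 94.8 and 53.5 and Junb 142, 64.3 and 57.8. Only Junb passed, from day 0 to day 139. Under spike-in scaling Junb did not pass in that comparison and passed as lower from day 0 to day 2 (log2 ratio -1.21).

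Cell type markers took differing courses over the 3 samples. The summed signal of 7 neutrophil markers was 223320, 75751 and 87438, and 4 of them fell by day 2 and by day 139 (S100a8, S100a9, Cxcr2 and Retnlg), while Ngp, Camp and Ltf, made early in neutrophil maturation, did not. S100a9 gave 147000 of the day 0 sum. Under spike-in scaling S100a9 no longer passed on day 139 (log2 ratio -0.79 in place of -1.33), which left 3 genes lower. Sums such as these follow their brightest probes. Markers of fibroblasts and stromal cells summed to 13304, 54080 and 21730. Among them the collagen gene Col1a1 read 1179, 11180 and 1361, with its highest signal on day 2 as for Mmp2, while the fibroblast receptor gene Pdgfra read 1189, 649 and 423. Macrophage markers summed to 97679, 105380 and 103610. Among them the red pulp macrophage gene Spic fell by day 2 (Z-score -3.63) and rose from day 2 to day 139 (Z-score 2.31). No other macrophage marker passed both criteria. Of 5 mesothelial markers, 4 rose by day 2 and rose against day 0 by day 139, with median log2 ratios of 3.02 and 4.57. With normexp these medians were 0.66 and 2.68, and 3 of the 5 rose by day 2, without Upk3b. The remaining marker, Wt1, read 1492, 1443 and 1057. Its log2 ratios against day 0 were -0.05 and -0.50, and it passed both criteria in no comparison. The medians of 3.02 and 4.57 use measured ratios. Upk3b and Lrrn4 were not well above background on day 0, so their day 2 ratios are bounds of at least 3.52-fold and 4.04-fold. B cell markers summed to 32391, 32689 and 69346, highest on day 139. The 6 islet endocrine markers summed to 62667, 102250 and 32716, and the 5 T cell markers to 9695, 13317 and 17946. In whole spleen, fewer cells of a type and less RNA per cell cannot be told apart, and the part of these cell types in the protease signals was not tested.

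The labelled tissue carried its defining markers, with the red pulp macrophage gene Spic at 13170, 4011 and 9906 and the B cell gene Cd79a at 4835, 7099 and 12450. Between 50.5% and 54.4% of probes were well above background on each array, and no spot was saturated. Repeat spots of 1 probe on an array had median coefficients of variation from 4.28% to 5.88%, which covers spot error and no biological spread. The 7 spike-in RNAs used were brighter on the earlier arrays, with a median in Sample 3 of 66.0% of Sample 1. Scaling by them shifted the median over all detected probes by 0.37 (log2) between day 0 and day 139 and by 0.43 between day 2 and day 139. It turned the 808 probes that rose and 709 that fell between day 0 and day 139 into 1499 and 387. Under that scaling Adamts4, Adamts9 probe 1, Mmp3, Mmp13, Mmp19 and Timp1 still fell from day 0 to day 139. All 3 arrays were on 1 slide, and time, mouse and array cannot be told apart. Age and time since streptozotocin, given 3 days before transplantation by the study's methods, run along with time. Sample 3 alone followed removal of the graft-bearing kidney, which cannot be told apart from time either.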

How the data were processed

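Total RNA of 3 spleen samples was hybridized by the authors to 1-colour 60-base oligonucleotide arrays (Agilent SurePrint G3 Mouse 8x60K, mm9 probe positions), 1 array per condition. RNA and labeling kits differ between the labels and the study's methods. Signals were extracted with Feature Extraction (10.7.1.1 per the file headers, 9.5.1.1 per the labels). The deposited scanner intensity values are background-subtracted processed signals with their software error. The deposited value table holds the authors' quantile-normalized signal on a linear scale, and it differed by under 0.1 on the log2 scale for at least 99.9% of probes from the values computed here. The deposited well-above-background score per spot, a flag, set detection.

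Control and outlier spots were left out, spots averaged per probe, 55679 probes quantile normalized, signals floored at 1 and taken to log2. Spots were well above background where at least 0.5 of a probe's spots were. Lists used the brightest detected probe of each gene. Named were all members, and per list up to 6 genes with the largest ratio or past both criteria, ordered by Z-score, plus the 5 genes nearest to Adamts4 and Timp1. Some list genes beside these (such as Fos, Fosb, Junb, Plau, Plat and Reck) were chosen after their values were seen. One gene of the lists is not reported here. Members and lists were chosen with earlier results of these data known. The calls were tested on simulated data. Of 200 changed probes, 198 were recovered for Sample 3 over Sample 1 and 200 for Sample 3 over Sample 2. All planted changes had the same size, larger than several member ratios, and the noise was below the spread of dim real probes. The recovery therefore does not carry over to smaller changes or dim probes. Of unchanged probes, 3.31% and 3.25% were called in these comparisons. For Sample 2 over Sample 1, with 0 probes changed, 4.64% were called, beside 2.55% lower and 1.91% higher on the real arrays. Such shares of unchanged probes largely follow from the Z-score limit, which is set against the SD of the same probes. A call alone therefore does not show a change. Normalization, background, floor, detection, window, SD and ratio limits were varied in 12 alternatives. Sequences came from the scanner files and RefSeq, and all 10 symbols matched its gene table. Exon or UTR position of probes was not analysed here. Python 3.11.15, pandas 2.3.3, R 4.3.3 and limma 3.58.1 were used.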

Additional observations from a re-analysis of the deposited data

How the results depend on the processing

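Each alternative changed 1 choice, and normexp changed the background correction together with its offset of 50. The Adamts4 (probe 1) log2 ratio of Sample 3 over Sample 1, -5.28 as reported, was -4.90 under spike-in scaling and -4.57 with normexp, and that of Sample 3 over Sample 2, -3.10 as reported, was -2.66 and -2.44. The count of member probes lower in Sample 2 than in Sample 1, 3 as reported, was 1 when detection was required on all arrays, which tests fewer probes, and 9 with a scaled median absolute deviation as the spread. The count higher in Sample 3 than in Sample 1, 0 as reported, was 1 (Mmp2) under spike-in scaling and with that deviation. Mmp2 fell from Sample 2 to Sample 3 under 5 alternatives: detection on all arrays, the background floor, normexp, the window of 250 probes and the median absolute deviation. Of 234 log2 ratios of single probes, 189 moved by less than the scanner error and 45 by more, and no called ratio turned. The 234 pool settings that could hardly move a ratio, namely the deposited value table and keeping outlier spots, of which the members had 0. Most of the 45 lay under spike-in scaling and normexp, so the pooled share understates how far these settings moved the ratios. Adamts9 probe 2 turned sign for Sample 3 over Sample 2 (0.15 under spike-in scaling and 0.38 with the floor). Adamts4 probe 1, Adamts9 probe 1, Mmp3 and Timp1 fell from Sample 1 to Sample 3 under all 12 alternatives.

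Over all probes, Sample 3 over Sample 1 gave 808 higher and 709 lower as reported, 1499 and 387 under spike-in scaling, 1238 and 609 with the floor, 1186 and 1058 without detection, and 1699 and 1738 with the median absolute deviation. Sample 3 over Sample 2 gave 767 and 569 as reported, 1622 and 274, 1162 and 481, 1149 and 860, and 1484 and 1518 in the same order. Sample 2 over Sample 1 gave 613 and 819 as reported, 985 and 1276 without detection, and 1349 and 1564 with the median absolute deviation. No paired analysis was possible because each condition has 1 array, and leaving out a replicate was not possible for the same reason. Signals near background limit Adamts4 probe 2, Adamts9 probe 2, Mmp13 and Mmp19 to bounds in Sample 3.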
